A study of Mus musculus with 12 samples.

Results

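The immunoglobulin probes of a mouse expression array were followed through B cells of Ebf1 fl/fl and Ebf1 +/fl mice, at rest and after stimulation with lipopolysaccharide (LPS). The array held 41174 non-control probes, each a designed oligonucleotide of 60 bases. A probe was a member where its gene name starts with Igh, Igk or Igl or its description names an immunoglobulin heavy, kappa or lambda chain, with Igll1 and Ighmbp2 left out. The rule gave 59 probes, and no measured value entered it. Another 51 probes described as V regions of an Ig heavy, kappa or lambda chain did not match the rule and were not used here. Of the 59 members, 57 passed the filter on dim probes, a signal well above background on 3 or more of the 12 arrays, and were tested. The other members, the heavy variable probe A_52_P160554 and the kappa variable probe A_52_P508687, were well above background on 1 and 0 arrays.

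The samples were B cells of mouse spleen (C57BL/6), in 4 groups of 3: Ebf1 fl/fl at rest, Ebf1 +/fl at rest, Ebf1 fl/fl with LPS and Ebf1 +/fl with LPS. All 4 groups carried RERT-Cre, a Cre recombinase fused to an oestrogen receptor, and all mice received 3 mg tamoxifen citrate on 4 days and were killed on day 10. The +/fl controls thus carried a floxed copy and Cre as well. The labels name both a B220+AA4.1- and a B220+AA4.1-CD21lo gate without saying which sample came from which. The LPS dose and time and the promoter behind the Cre were not given in the sources used here. Nothing says that the 3 samples of a group came from separate mice, so p-values measure only the spread between these samples. The comparisons ask what Ebf1, a transcription factor of the B lineage, does in mature resting and activated B cells.

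An antibody is made of heavy chains and of kappa or lambda light chains. Each chain has a variable region, joined from V, (D) and J gene segments in the developing B cell, and a constant region, which sets the isotype. Resting B cells carry IgM on their surface. After activation, B cells can become plasma cells, which make very large amounts of immunoglobulin RNA and use the short secreted end of the heavy chain transcript, or they can switch from the mu to a gamma, alpha or epsilon constant region. LPS, a component of bacterial cell walls sensed by Toll-like receptor 4, drives mouse B cells along both paths.

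The members covered 13 heavy constant, 19 heavy variable, 19 kappa variable, 2 lambda constant and 6 lambda variable probes. These classes were assigned from the sequence and the position in the files, because the gene names on the array are old and often name another part of the gene. By name, 6 probes called variable lie in constant regions and 3 called constant were read as variable, as were 7 with no segment in their name. Of those 3, A_51_P117903 is placed at 5420526 on the unplaced part of chromosome 12, near the Ighg2b constant probe at 5421654. Its position thus does not show it to be variable. No member lies in the delta, epsilon, gamma 3 or kappa constant region. Of 1711 pairs of members, 16 pairs, made up of 15 probes, share a run of 20 or more identical bases. All 16 pairs lie within 1 chain, so such probes can bind each other's transcripts and are not independent measurements.

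The following sequences of the array, with positions of build mm7, show what the main results were measured on. The mu and alpha secretory tails are related, and capitals mark the longest run of bases that both probes share, 11 bases. The mu tail probe lies at chr12:110942239-110942298 on the minus strand, and the alpha tail probe, which the array calls Igh-VJ558, at chr12:110781031-110781090 on the minus strand.
Ighm secretory tail A_52_P571419: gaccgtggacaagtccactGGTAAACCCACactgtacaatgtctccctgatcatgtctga
Igha secretory tail A_51_P509679: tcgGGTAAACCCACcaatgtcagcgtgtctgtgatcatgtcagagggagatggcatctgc
The third is the probe for the body of the mu constant region, at chr12:110942769-110942828 on the minus strand, printed without capitals.
Ighm constant region A_51_P485421: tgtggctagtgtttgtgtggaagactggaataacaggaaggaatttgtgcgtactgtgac

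The gamma constant regions are close relatives, and 3 probes cover homologous stretches of them. Capitals mark the 11 bases common to all 3. The Ighg1 probe lies at chr12:110850402-110850461 on the minus strand, while the Ighg2c and Ighg2b probes were placed by the array's maker on the unplaced part of chromosome 12.
Ighg1 constant region A_51_P461067: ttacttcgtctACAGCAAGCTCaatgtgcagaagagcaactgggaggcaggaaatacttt
Ighg2c constant region A_51_P311235: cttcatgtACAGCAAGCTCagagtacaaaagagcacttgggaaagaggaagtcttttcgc
Ighg2b constant region A_52_P74106: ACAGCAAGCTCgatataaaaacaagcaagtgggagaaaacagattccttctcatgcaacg

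Of the variable region probes, 3 that were lower in resting fl/fl cells are shown without capitals, followed by a pair that shares a run of 35 bases, in capitals, and by a lambda probe that the files place across 2 separate blocks. The array calls the first 3 Igh, Igh-VJ558 and Ighg, and they lie at chr12:112168065-112168124, chr12:111118840-111118898 and chr12:111380688-111380747, all on the minus strand. The pair, both named Igh-VJ558, lies at chr12:113687521-113687580 and chr12:113687518-113687577. The lambda probe spans chr16:18612988-18634805, far more than its own length.
Igh A_51_P155336: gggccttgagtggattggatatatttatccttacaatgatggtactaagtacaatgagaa
Igh-VJ558 A_51_P391836: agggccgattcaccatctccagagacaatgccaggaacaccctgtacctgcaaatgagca
Ighg A_51_P275642: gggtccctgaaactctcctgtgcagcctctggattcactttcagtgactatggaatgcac
Igh-VJ558 A_52_P151887: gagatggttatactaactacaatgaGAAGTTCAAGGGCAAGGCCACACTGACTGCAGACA
Igh-VJ558 A_52_P686392: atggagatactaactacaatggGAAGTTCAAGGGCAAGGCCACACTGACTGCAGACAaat
Igl-V1 A_51_P503757: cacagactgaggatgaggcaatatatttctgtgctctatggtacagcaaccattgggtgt

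Levels below are log2 signal relative to each array's 75th percentile, so 0 is the level of that percentile, and differences are log2 differences ± SE between groups of 3 arrays. Adjusted p-values are from limma with Benjamini-Hochberg adjustment over 25731 probes, and a probe was called at an adjusted p under 0.05. The share of spots well above background was between 54.4% and 61.4% on 11 arrays and 83.2% on the array of LPS fl/fl 2, whose median signal of 93.0 also stood apart from 19.0 to 35.9 on the others. Of the 2 Ebf1 probes, the first, A_51_P188054, read 1.81, 1.67 and 1.71 in resting fl/fl cells against 0.75, 1.40 and 1.18 in resting +/fl cells. The other, A_52_P531838, read -4.21, -4.25 and -5.02 against -2.44, -2.18 and -3.16. Their differences ran in opposite directions, at 0.62 and -1.90, and the files do not say which of them lies in the deleted part, so neither checks the genotype labels. The median summed signal of 6 erythroid markers was 29.3 in resting fl/fl, 56.6 in resting +/fl, 5.88 in LPS fl/fl and 10.7 in LPS +/fl cells, and that of 8 T cell markers 18.8, 23.2, 13.1 and 10.2 in the same order. The summed signal of 8 myeloid markers, relative to the 75th percentile, ran from 9.65 to 16.2 in resting fl/fl cells, from 15.6 to 119.7 in resting +/fl cells, from 18.7 to 75.2 in LPS fl/fl cells and from 11.1 to 88.8 in LPS +/fl cells. The names of the samples resting +/fl 3 and LPS +/fl 1 share a number.

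Most immunoglobulin probes were lower with LPS than at rest. In +/fl cells 37 of 57 members fell and 0 rose, 64.9% of the members against 26% of all tested probes that fell and 31% that rose. In fl/fl cells 35 members fell, 61.4% against 23.7% of all tested probes, and 3 rose, 5.26% against 31.2%. The median member differed by -1.06 in +/fl cells and by -0.86 in fl/fl cells, where the median of all tested probes was 0.01 and 0.12. Of the members, 33 fell in both genotypes. All 8 B cell markers were well above background on every array, and their summed signal was lower with LPS too. It ran from 487.1 to 615.7 in resting +/fl and from 241.1 to 248.7 in LPS +/fl cells, and from 425 to 498.1 in resting fl/fl and from 175.8 to 216.1 in LPS fl/fl cells. Their part in the immunoglobulin values was not tested. These are levels relative to the other RNA of a sample, and in bulk samples fewer cells of a type and less RNA per cell cannot be told apart.

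All 3 Ighm probes, which measure the heavy chain of IgM, fell with LPS in both genotypes. The probe for the body of the constant region read 6.91, 7.37 and 7.30 in resting +/fl cells and 5.94, 5.71 and 5.89 in LPS +/fl cells, and 6.08, 6.87 and 6.62 in resting fl/fl cells and 5.70, 5.67 and 5.60 in LPS fl/fl cells. Every LPS array lay below every resting array of its genotype. The fall was 1.35 ± 0.20 in +/fl cells, 2.54-fold, with an adjusted p of 0.00021 in limma, and 0.86 ± 0.20 in fl/fl cells, 1.82-fold, with an adjusted p of 0.0038. This probe is spotted 10 times on each array, and the SD of its log2 signal over the spots of an array was between 0.03 and 0.11, smaller than the distance between the groups.

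The secretory tail of Ighm, present in the secreted form, also fell. It read 7.16, 6.94 and 7.51 in resting +/fl cells against 6.76, 6.29 and 6.53 with LPS, a fall of 0.68 ± 0.23 (limma adjusted p 0.029). The fl/fl arrays read 6.88, 6.48 and 7.09 at rest against 5.77, 6.38 and 5.82 with LPS, a fall of 0.83 ± 0.23 (limma adjusted p 0.012). The groups did not overlap in either genotype, but the call in +/fl cells was lost without resting +/fl 1 or 3 or without LPS +/fl 2 or 3, and with slide as a block (adjusted p 0.070), median scaling, no filter or the arrays that share a number left out. The third Ighm probe, A_52_P358360 at chr12:110940000-110940059, lies 2239 bases further 3′ than the tail probe, downstream of the secreted end. As background, the exons of the membrane form of mu lie in that direction, but the files do not name the exon of this probe. It fell by 0.82 ± 0.16 in +/fl cells and by 1.02 ± 0.16 in fl/fl cells, with limma adjusted p of 0.0012 and 0.00032. Its raw signal ran from 227059 to 248816 units at rest and from 194784 to 222289 with LPS. The 75th percentile it was scaled by ran from 8.28 to 8.95 in log2 at rest and from 9.18 to 9.51 with LPS. The size of this fall thus depends on the scaling. No spot of this probe was marked saturated, and whether so bright a signal is compressed was not tested. Quantile normalization gave -0.40 and -0.49, and in +/fl cells the call was lost with median scaling (adjusted p 0.24). None of the 3 Ighm probes was called in the test of whether the genotypes' LPS responses differ, with interaction values of 0.48 ± 0.28, -0.15 ± 0.33 and -0.20 ± 0.22 and limma adjusted p of 0.37 to 0.83.

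All 18 tested heavy variable probes fell with LPS in +/fl cells, by 1.07 to 1.72, with a median of -1.54. Among them, A_52_P530750 passed the filter on dim probes only through the resting +/fl arrays, its highest group, so its fall is no separate support. In fl/fl cells 15 of 18 fell, 1 rose, and the median was -1.17. The lowest value, a fall of 2.05 ± 0.15 or 4.15-fold in fl/fl cells, belonged to the probe AF210281, which read 2.53, 2.59 and 2.92 at rest and 0.59, 0.61 and 0.68 with LPS. In +/fl cells the same probe read 2.13, 2.27 and 2.61 at rest and 0.72, 0.46 and 0.69 with LPS, a fall of 1.72 ± 0.15. The LPS arrays lay far below the resting ones in both genotypes. Its limma adjusted p was 2.2e-06 in fl/fl and 6.6e-06 in +/fl cells. The pair with 35 shared bases gave nearly equal falls, 1.55 and 1.60 in +/fl cells and 1.77 and 1.85 in fl/fl cells. Within the slides that held both conditions, the median heavy variable difference was -1.59 and -1.14 in +/fl cells and -1.20 and -1.22 in fl/fl cells.

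Kappa variable probes fell too, with smaller median differences. In +/fl cells 16 of 18 fell, with differences from -1.26 to -0.63 and a median of -0.95. Among the fl/fl arrays 15 of 18 fell, with a median of -0.90. The probe Igkv4-63 read 0.88, 1.11 and 1.57 in resting +/fl cells and -0.10, -0.21 and 0.08 with LPS, and 1.30, 1.52 and 1.38 in resting fl/fl cells and 0.03, 0.11 and 0.18 with LPS. The groups were well apart, and the falls were 1.26 ± 0.17 and 1.30 ± 0.17 (limma adjusted p 0.00011 and 0.0001). Within slides, the median kappa variable difference was -0.91 and -0.71 in +/fl cells and -0.83 and -1.07 in fl/fl cells. The 75th percentile used for scaling was higher with LPS, at 9.18 to 9.51 in log2 against 8.28 to 8.95 at rest. The size of these falls, like that of every LPS difference, thus depends on the scaling. The heavy and kappa variable medians stayed below 0 in both LPS responses under all 31 settings tried. Over these settings the kappa median ran from -1.13 to -0.68 in +/fl cells and from -1.18 to -0.73 in fl/fl cells.

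The lambda chain, used by a small part of mouse antibodies, did not follow. None of its 8 probes was called in +/fl cells, where the 6 variable probes differed by -0.24 to 0.06 and the 2 constant probes by -0.17 and -0.04. In fl/fl cells 2 of the 8 rose and 0 fell, where 31.2% of all tested probes rose and 23.7% fell. The constant region probe A_52_P450277 read 4.91, 4.64 and 4.72 at rest and 5.20, 5.07 and 5.03 with LPS, a rise of 0.34 ± 0.12 (limma adjusted p 0.033). The variable region probe A_52_P383114 read 3.16, 2.95 and 2.99 at rest and 3.70, 3.59 and 3.38 with LPS, a rise of 0.52 ± 0.18 (limma adjusted p 0.031). In both probes the LPS arrays lay above the resting arrays. Both calls were lost without resting fl/fl 2 or 3, without LPS fl/fl 1 or 2, with slide as a block (adjusted p 0.082 and 0.080), quantile normalization, the deposited values or no filter, and with median scaling, which moved the median of all probes from 0.12 to -0.16 in fl/fl cells and from 0.01 to 0.29 in +/fl cells. Median scaling turned the median of the 2 lambda constant probes in fl/fl cells from 0.19 to -0.09, and that of the 6 lambda variable probes in +/fl cells from -0.14 to 0.13. The 6 variable probes lie in 2 places, at the V segment and at its joint to J, and overlap or adjoin one another there, so they are not independent measurements.

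Gamma and alpha probes, of isotypes that B cells can switch to, gave few calls, and many of them varied widely between the arrays of a group. Of 6 gamma constant probes, 0 were called with LPS in +/fl cells and 2, both in Ighg1, were called lower in fl/fl cells. The Ighg1 probe A_51_P461067 read -1.99, -1.13 and -0.68 in resting fl/fl cells and -2.80, -1.51 and -3.50 with LPS, a fall of 1.34 ± 0.51 (limma adjusted p 0.046) between groups that overlapped. The other probe, A_52_P1054013, fell by 1.25 ± 0.48 (limma adjusted p 0.048), and each call was lost on leaving out most single arrays, any of 10 for the first and any of 8 for the other, with resting fl/fl 2 and 3 and LPS fl/fl 1 and 3 among them. In +/fl cells the same probes gave -1.09 ± 0.51 and -1.01 ± 0.48 (limma adjusted p 0.09 and 0.096), and the groups of the first did not overlap. The third Ighg1 probe, A_51_P122752 at the secreted end, gave -0.11 ± 0.31 in +/fl cells (limma adjusted p 0.78). In fl/fl cells it gave -0.79 ± 0.31 and just missed the threshold (limma adjusted p 0.0504), with no overlap between the groups.

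The Ighg2c probe A_51_P311235, which the array names Igh-1a, had the largest SE of the 57 tested members in each genotype and LPS comparison, 1.26. It read 1.33, -0.72 and 2.26 in resting fl/fl cells, 1.06, 1.54 and 2.79 in resting +/fl cells, -2.42, 1.59 and -2.51 in LPS fl/fl cells and 2.56, -0.95 and 0.24 in LPS +/fl cells. The highest arrays at rest and with LPS were resting +/fl 3 and LPS +/fl 1, the samples that share a number. Among the LPS fl/fl arrays replicate 2 stood high above the others. Ighg2b, measured by A_52_P74106, was high on the same arrays: 3.34 in resting fl/fl 3, 3.09 in resting +/fl 3, 2.04 in LPS fl/fl 2 and 2.18 in LPS +/fl 1, against -0.32 and -0.26 in LPS fl/fl 1 and 3. No comparison called either gene, and the 95% interval of the Ighg2c LPS difference in fl/fl cells ran from -4.88 to 0.74.

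The 3 alpha constant probes, of IgA, were not called in any comparison. The tail probe read 4.13, 4.56 and 4.26 in resting fl/fl cells, 5.25, 3.67 and 5.66 in resting +/fl cells, 4.59, 5.66 and 5.10 in LPS fl/fl cells and 4.41, 3.84 and 5.48 in LPS +/fl cells. In fl/fl cells every LPS array lay above every resting array, with a difference of 0.80 ± 0.54 (limma adjusted p 0.24). In +/fl cells the groups overlapped widely, at -0.28 ± 0.54. Jchain, the joining chain of secreted IgA and IgM and a plasma cell marker, ranged from 0.47 to 4.63 over the 12 arrays, with its highest level in resting +/fl 3 and its lowest in resting fl/fl 2. The summed signal of 6 plasma cell markers was 5.54 to 11.5 in resting fl/fl, 9.87 to 30.5 in resting +/fl, 14.6 to 23.1 in LPS fl/fl and 17.6 to 26.1 in LPS +/fl cells. The part of plasma cells in the alpha and gamma values was not tested. The probe A_51_P270661, which lies 5′ of the alpha constant region and reads the germline transcript made there before switching, stayed between -4.58 and -3.31 on all 12 arrays and was not called. Its raw signal was dim, 73.5 units on LPS fl/fl 2 and 19.5 to 33.4 on the other arrays, which limits what it can show.

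At rest, fl/fl cells had lower signal at a few heavy variable probes. In fl/fl against +/fl cells 6 of 57 members were lower and 0 higher, 10.5% of the members, where 3.75% of all tested probes were lower and 3.94% higher. All 6 were heavy variable probes, among 18 tested, and 0 of 15 constant, 18 kappa variable and 6 lambda variable probes were called. Among the 6, A_52_P530750 passed the filter on dim probes only through the resting +/fl arrays, where it was high. Its call is thus no separate support. It also shares a run of 26 identical bases with A_52_P377838, another of the 6, so these are not independent measurements. The median member differed by -0.14, against 0.04 for all probes. The count of 6 was 1 without resting +/fl 1 or 3, LPS fl/fl 1 or 3, or LPS +/fl 3, and 3 without resting fl/fl 2 or 3 or LPS +/fl 1. Without resting fl/fl 1 it was 3 as well, but 1 was lower and 2 were higher.

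The Igh probe A_51_P155336, at chr12:112168065-112168124, differed most. It read -4.26, -4.83 and -4.64 in resting fl/fl cells and -2.25, -1.76 and -1.88 in resting +/fl cells. The groups were far apart, with a difference of -2.61 ± 0.18, 6.12-fold, and a limma adjusted p of 0.00023. On each slide, which held 1 array of either group, the difference was between -2.76 and -2.50. The raw signals were 17.3, 15.1 and 12.5 units in fl/fl cells and 104, 98.0 and 124 in +/fl cells, so the fl/fl values were dim, though well above background. With background corrected by repaired normexp, which adds an offset of 50, the difference was -1.02 (limma adjusted p 0.0017), and under all 12 single-array omissions the probe stayed called.

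The other 5 were called close to the threshold. The probe Ighg A_51_P275642 read 1.64, 2.45 and 2.50 in the fl/fl group against 3.05, 3.04 and 3.38 in the +/fl group, a difference of -0.96 ± 0.23 (limma adjusted p 0.038). The probe Igh-VJ558 A_51_P391836 read 1.98, 2.59 and 2.62 against 3.1, 3.19 and 3.50, a difference of -0.87 ± 0.23 (limma adjusted p 0.047). In both, every fl/fl array lay below every +/fl array. D17387, probe A_51_P103945, differed by -1.07 ± 0.28 and AY172399, probe A_52_P377838, by -0.64 ± 0.17, with limma adjusted p of 0.044 and 0.047. The last, A_52_P530750 (AY182587), was not well above background on any resting fl/fl array and on all 3 resting +/fl arrays, so its difference is a bound: at least 2.41-fold lower in fl/fl cells, taken against the dimmest signal well above background on each array (limma adjusted p 0.047, measured means -5.89 and -3.90). With LPS this probe was well above background on 1 of 3 arrays of either genotype. It thus passed the filter of 3 arrays only through the resting +/fl group, and its adjusted p is no independent support.

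Along the heavy chain locus the resting differences followed an order, which was noticed in the data and is given as a description. In the mouse reference GRCm38 the constant genes lie at low chromosome 12 coordinates, with Igha lowest and Ighm highest, followed by the J segments and then the V segments. The 5 placed heavy variable probes nearest the J segments, from 110949880 to 111380688 on mm7, were all lower in fl/fl cells, with differences of -0.46, -0.64, -0.87, -1.07 and -0.96. Of the 9 farther probes 4 were below 0, and all of them but A_51_P155336 lay between -0.19 and 0.33. Over the 14 placed probes Spearman's rho between position and resting difference was 0.70, and 0.70, 0.62 and 0.71 on the 3 slides. The slide values split the same arrays in which the order was noticed, so they do not test it. These probes share arrays and partly sequence. Those starting at 110949880 and 110949903 overlap in their placement and so do not mark separate positions. They lie closer to the Ighm body probe, at 110942769, than to the next variable probe, at 111118840. Whether they read V or J segments was not determined. With LPS the rho was 0.43, and the same 5 probes differed by -0.32 to -0.04.

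The kappa locus was less ordered. On chromosome 6 the J and constant segments lie at high coordinates, and over 18 kappa probes rho was 0.48 at rest, with 0.48, 0.61 and 0.15 on the slides, and -0.37 with LPS. The probes at the J end, Igk-V21-12 and BC080787, had the highest differences. Igk-V21-12 read 1.53, 2.07 and 2.79 in resting fl/fl cells against 1.21, 1.22 and 1.38 in the resting controls, a difference of 0.86 ± 0.27 that missed the threshold (limma adjusted p 0.076). BC080787 read 2.36, 3.19 and 3.67 against 2.06, 2.37 and 2.30, at 0.83 ± 0.28 (limma adjusted p 0.094). With LPS their genotype differences were 0.05 and 0.01, and in fl/fl cells both fell by 1.92 and 1.95.

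The constant regions did not pass at rest. The Ighm body probe came nearest, at -0.67 ± 0.20 in fl/fl cells (limma adjusted p 0.065), with no overlap between the groups. The tail probe gave -0.39 ± 0.23. The probe downstream, whose raw signal varied little over the arrays, gave 0.21 ± 0.16, so the scaled Ighm values did not share a sign. All 8 lambda probes were lower in fl/fl cells, by 0.14 to 0.46, and none was called. On slide 1 the median of the 6 lambda variable probes was 0.09, against -0.32 and -0.74 on slides 2 and 3. The resting +/fl arrays 1 and 3 carried the highest myeloid marker sums of the resting arrays, 119.7 and 86.7 against 15.6 in replicate 2, and 1 of 8 tested myeloid markers was called lower in fl/fl cells. Whether other cells bear on the resting immunoglobulin differences was not tested.

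With LPS no immunoglobulin probe was called between the genotypes. Limma called 0 of 57 members, with 1 at an unadjusted p under 0.05, against 1.02% of all tested probes called in either direction, and array weights called 2. The median member differed by 0.01. Among the well measured members the 95% intervals show what could have been seen: from -0.63 to 0.25 for the Ighm body probe and from -0.20 to 0.33 for the lambda constant probe A_52_P450277. The Ighm tail probe, the one with an unadjusted p under 0.05, differed by -0.54 ± 0.23 (limma adjusted p 0.23), with 5.77, 6.38 and 5.82 in the fl/fl group against 6.76, 6.29 and 6.53 in the other. For Ighg2c the interval ran from -4.54 to 1.08, so a difference of several fold was not detectable with 3 arrays a group.

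The LPS responses of the genotypes differed at 1 of 57 members, 1.75%, where 0.132% of all tested probes were called in either direction. This was again A_51_P155336, which fell in +/fl cells by 1.32 ± 0.18 and rose in fl/fl cells by 1.27 ± 0.18, an interaction of 2.58 ± 0.26 (limma adjusted p 0.0087). With LPS it read -3.50, -3.07 and -3.36 in fl/fl cells and -3.24, -3.37 and -3.22 in +/fl cells, so both genotypes reached the same range from opposite sides. The interaction has the resting difference as one of its parts and is not a second, independent result. The call was lost under quantile normalization (adjusted p 0.066), with median scaling (0.11) and without the arrays that share a sample number (0.11), and with repaired normexp the value was 0.98 (0.052). The rise in fl/fl cells rests on the background correction: it was -0.0015 with repaired normexp (limma adjusted p 0.99).

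Genes that act on immunoglobulin were read from lists of other genes, each gene by its brightest probe. The LPS response counts stand beside 31% of all tested probes that rose and 26% that fell with LPS in +/fl cells, and 31.2% and 23.7% in fl/fl cells. Counts between genotypes stand beside 3.75% of all tested probes lower and 3.94% higher in fl/fl cells at rest, and 1.02% called in either direction with LPS. Of 12 partners of the B cell receptor, 7 fell and 0 rose with LPS in +/fl cells and 7 fell and 2 rose in fl/fl cells, with medians of -1.13 and -1.75. The share that fell was 58.3% in each genotype. Cd79a, the signalling chain that carries surface immunoglobulin, fell by 2.93 ± 0.16 and 3.43 ± 0.16. At rest 3 of the 12 were lower in fl/fl cells, among them Cr2, a complement receptor, at -2.46 ± 0.13 and Cd79a at -0.75 ± 0.16. With LPS 2 of the 12 were lower, Cr2 at -1.98 and Cd79a at -1.25. Their limma adjusted p was 2.9e-05 and 0.026 at rest, and 0.00033 and 0.014 with LPS.

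Of 19 genes of immunoglobulin transcription and RNA processing, 7 rose and 8 fell with LPS in +/fl cells and 7 rose and 6 fell in fl/fl cells, and none was called between genotypes in either state. The share that rose, 36.8% in both genotypes, was near that of all probes, and the share that fell was 42.1% and 31.6%. Pou2af1, a coactivator at immunoglobulin promoters, read 6.79, 7.07 and 7.07 in resting +/fl and 4.96, 4.48 and 4.89 in LPS +/fl cells, a fall of 2.20 ± 0.18. In fl/fl cells it fell by 2.75 ± 0.18. Ets1, a transcription factor of resting lymphocytes, fell by 2.31 and 2.84, while Nfkb1 rose by 1.59 and 1.30. All of these passed the test with limma adjusted p of at most 8.5e-06.

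Of 19 genes of antibody secretion, 10 rose and 2 fell in +/fl cells and 11 rose and 4 fell in fl/fl cells. The share that rose was 52.6% and 57.9%, against 31% and 31.2% of all probes. Prdm1, the regulator that drives plasma cell differentiation, rose by 0.98 ± 0.31 and 1.61 ± 0.31, and Irf4, which acts with it, by 1.73 and 1.79. Xbp1, a regulator of the secretory apparatus, gave -0.30 ± 0.16 and -0.06 ± 0.16 and was not called. Sdc1, the plasma cell surface marker CD138, fell by 2.09 and 2.41. Mzb1, a chaperone of the endoplasmic reticulum that helps IgM assembly, was lower in fl/fl cells in both states. It read 3.68, 3.00 and 3.57 in resting fl/fl cells against 5.41, 5.07 and 5.37 in resting +/fl cells, and 2.86, 3.66 and 3.06 against 4.94, 4.73 and 4.48 with LPS. The groups lay well apart, at -1.87 ± 0.24 and -1.52 ± 0.24 (limma adjusted p 0.0055 and 0.028).

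Of 21 genes of class switching and somatic mutation, 12 rose and 3 fell with LPS in +/fl cells and 8 rose and 3 fell in fl/fl cells. The share that rose was 57.1% and 38.1%, the latter near the 31.2% of all probes. Batf rose by 3.13 and 2.90 and Ung, which removes uracil from DNA, by 2.23 and 2.30. At rest Apex1, Xrcc6 and Ung were lower in fl/fl cells, at -0.82, -0.64 and -0.59, and Bach2 higher at 0.84, and with LPS none of the 21 was called between genotypes. Of 7 genes of the surrogate light chain and of recombination, 4 were tested. With LPS Vpreb3 fell by 4.29 ± 0.26 in +/fl cells and 5.60 ± 0.26 in fl/fl cells, and was lower in LPS fl/fl than in LPS +/fl cells at -1.84 ± 0.26 (limma adjusted p 0.018).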

How the data were processed

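RNA of 12 samples was hybridised to 1-colour Agilent arrays (design 014868, probe positions on mm7), 4 arrays on each of 3 slides. The deposited intensity values are gProcessedSignal, background-subtracted by Agilent Feature Extraction 9.5.3.1, per the file headers; the submitters' processing notes name 9.1. The authors' value table, taken to log2 as an alternative, holds intensity on a linear scale with a median of 30.8 on every array. Spots marked non-uniform or as outliers were left out, replicate spots averaged, and log2 values centred on each array's 75th percentile. Probes well above background on at least 3 arrays were fitted with limma 3.58.1 (R 4.3.3), group means over all 12 arrays, and Benjamini-Hochberg adjustment over 25731 probes; the fit was tested on simulated data. The number of arrays limits the precision. Segments were read from sequence and position after the files were seen. Named were all constant region probes and, per comparison, up to 6 others each way with the largest non-overlapping called differences, up to 4 genes of a list by p, and, chosen after their values were seen, further probes. The members and lists were chosen with earlier results of these data known. Symbols of other genes follow a GRCm38 RefSeq table. Alternatives: background correction, normalization, filters, spot flags, slide and replicate blocks, samples, moderation, array weights, threshold and leaving out arrays. Values of some listed genes are not reported here.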

Additional observations from a re-analysis of the deposited data

Results flagged for a closer look

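The Igh probe A_51_P155336 responded to LPS differently in the 2 genotypes, by the test of the interaction itself, with a value of 2.58 (limma adjusted p 0.0087). Its level fell in +/fl cells and rose in fl/fl cells, but with other background corrections the fl/fl change was -0.0015 (repaired normexp, limma adjusted p 0.99) and -0.63 (normexp, limma adjusted p 0.50).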

How the results depend on the processing

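The falls with LPS at the 3 Ighm probes and in the heavy and kappa variable medians kept their direction under the 30 alternatives run, while the resting genotype count moved by over 1.5 times under most of them. Normexp, as planned, failed on some arrays and left 0 of 6 resting calls, 1 of 37 and 7 of 38 LPS calls and 0 of 1 interaction; A_51_P155336 then changed with LPS by -0.63 in the fl/fl genotype (limma adjusted p 0.50). With repaired normexp, chosen after seeing the data, that value was -0.0015 (limma adjusted p 0.99) and the interaction count 0. The interaction count was also 0 under quantile normalization, median scaling, the deposited values, the replicate block, without the arrays sharing a sample number, and with a slide block and without LPS fl/fl 2 (chosen after seeing the data). Median scaling left 1 resting call and 18 calls in the LPS response of +/fl cells. The resting count was 1 with no filter, the replicate block, only the arrays of the comparison, an adjusted p of 0.01 or without the arrays sharing a sample number, 2 with array weights, 3 with slide as a random block and 10 with trend and robust moderation. Array weights gave 2 calls in the LPS genotype comparison. Leaving out single arrays gave 1 to 5 resting calls, 2 of 3 of them higher without resting fl/fl 1, 0 for the LPS genotype, 34 to 39 for the LPS response of the +/fl and 33 to 39 for that of the fl/fl genotype, and 1 interaction. Where a call was lost, the cause was not tested. Same-numbered samples' deviations correlated between -0.08 and 0.10. These values show no clear pairing by number, but with 3 arrays a group they cannot exclude it. The replicate block gave 38 and 39 calls in the LPS responses. Signal near background limits A_51_P155336 and AY182587 at rest.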
